A study of Mus musculus with 20 samples.

Results

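Alas2, Slc25a37, Abcb10, Tfrc, Klf1, Gata1, Epor, Rbm38 and Slc4a1 are 9 genes of red cell precursors, taken by their symbols from a table of 33495 genes that was counted in 20 RNA-seq libraries of embryonic mouse heart. Floxed Kmt2d, which encodes a histone H3 lysine 4 methyltransferase, had been deleted in these hearts by Mesp1Cre (expressed from the early mesoderm that gives rise to the heart), by Mef2cAHF::Cre (precursors of the anterior heart field) or by Tnnt2::Cre (cardiomyocytes). Whole hearts were taken for Mesp1Cre, with 4 mutants and 4 controls labelled E9.0, and for Tnnt2::Cre, with 3 mutants and 3 controls at E11.5. For Mef2cAHF::Cre the right ventricle and outflow tract were taken at E11.5, with 3 libraries labelled mutant and 3 labelled control. All embryos were C57BL/6 and carried the Cre of their line and the mTmG reporter (mTmG/+). Mutants were Kmt2d fl/fl, and controls, which the labels call WT, were Kmt2d fl/+, so each comparison is of deletion of both alleles with deletion of 1 allele. The protocol text of the labels gives E11.5 for all hearts, also those of Mesp1Cre. All 9 genes passed the filter on low counts in each line.

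The heart of an embryo at these stages is filled with circulating blood, and most of its red cells are nucleated primitive erythroblasts that still transcribe. Gata1 and Klf1 are transcription factors that switch on the globin genes and the genes of heme synthesis, and Epor is the receptor of erythropoietin, the hormone that keeps erythroid precursors alive. Tfrc, the transferrin receptor, brings iron into the cell, Slc25a37 (mitoferrin 1) carries it into mitochondria with the help of the transporter Abcb10, and Alas2 starts heme synthesis in red cells. Slc4a1, band 3, is the anion exchanger of the red cell membrane, and Rbm38 is an RNA-binding protein that takes part in splicing late in erythroid differentiation. Tfrc and Rbm38 are also used by many other cells. In bulk RNA, fewer red cells in a heart and less RNA of a gene per red cell cannot be told apart.

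The promoters of 5 of the genes are shown because Klf1 and Gata1 are themselves DNA-binding regulators of red cell genes: Klf1 binds sites that hold CACCC, and Gata1 sites that hold GATA. Sequences are from RefSeq, written 5′ to 3′ on the strand of the gene, and each was found without a mismatch in mm9. The window searched was the 250 bases before the RefSeq start, on both strands, and capitals mark GATAA (or TTATC) and CACCC (or GGGTG). Bases that lie in an exon of the annotation are left out, which shortens the windows of Alas2 and Klf1 to 208 and 196 bases.
Alas2, mm9 chrX:146981710-146981917, plus strand: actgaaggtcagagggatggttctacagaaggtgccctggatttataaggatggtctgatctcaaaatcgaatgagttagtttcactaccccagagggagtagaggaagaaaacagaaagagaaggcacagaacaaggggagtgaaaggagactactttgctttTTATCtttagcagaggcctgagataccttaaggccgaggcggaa
Klf1, mm9 chr8:87425631-87425826, plus strand: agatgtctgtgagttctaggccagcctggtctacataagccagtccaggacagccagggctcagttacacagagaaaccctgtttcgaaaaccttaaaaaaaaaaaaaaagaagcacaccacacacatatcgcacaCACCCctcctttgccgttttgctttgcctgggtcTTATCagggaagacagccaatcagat
Epor, mm9 chr9:21768021-21768270, minus strand: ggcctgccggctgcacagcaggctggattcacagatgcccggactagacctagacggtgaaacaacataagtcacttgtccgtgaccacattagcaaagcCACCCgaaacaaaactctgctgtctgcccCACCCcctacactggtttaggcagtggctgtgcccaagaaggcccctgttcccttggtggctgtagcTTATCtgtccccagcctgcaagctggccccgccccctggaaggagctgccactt
Gata1, mm9 chrX:7545037-7545286, minus strand: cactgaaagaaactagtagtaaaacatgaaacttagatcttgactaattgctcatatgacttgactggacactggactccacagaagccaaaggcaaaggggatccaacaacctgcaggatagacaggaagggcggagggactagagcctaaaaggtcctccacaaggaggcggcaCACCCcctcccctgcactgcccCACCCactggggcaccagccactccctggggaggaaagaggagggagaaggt
Tfrc, mm9 chr16:32608732-32608981, plus strand: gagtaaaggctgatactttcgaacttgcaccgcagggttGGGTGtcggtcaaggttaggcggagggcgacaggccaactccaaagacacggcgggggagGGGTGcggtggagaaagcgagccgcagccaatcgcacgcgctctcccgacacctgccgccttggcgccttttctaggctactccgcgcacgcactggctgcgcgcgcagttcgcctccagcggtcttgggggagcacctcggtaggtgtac

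Of the 9 genes, 7 had an entry in the promoter table. GATAA was found in the windows of 3 of them, 86 bases before the start of Alas2, 80 before that of Klf1 and 54 before that of Epor. Of all 32851 promoter windows, 22.6% held GATAA. The motif CACCC was found in the windows of all 7, which included Abcb10 and Rbm38, against 52.0% of all windows. In Alas2 its 3 matches lie 40, 35 and 30 bases before the RefSeq start, in the stretch that is not printed. Alas2, Klf1 and Epor held both motifs, as did 10.1% of all windows. These matches are letters in a window and not measured binding sites, and Gata1's RefSeq start lies 10161 bases inside the gene interval that was counted.

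The libraries held 21727258 to 45341870 counted reads. Kmt2d, listed as Mll2, had 125.6, 140.2, 138.2 and 128.6 CPM (read counts scaled to library size, here over all 20 libraries) in the Mesp1Cre mutants and 162.7, 153.6, 157.7 and 149.8 CPM in their controls. In Tnnt2::Cre it had 113.4, 118.0 and 122.0 CPM in mutants and 166.5, 156.5 and 126.5 CPM in controls. In both lines every mutant was below every control, and neither difference passed the test (FDR 0.0764 in Mesp1Cre and 0.327 in Tnnt2::Cre by edgeR). In Mef2cAHF::Cre the libraries labelled mutant had 182.7, 184.0 and 189.7 CPM and those labelled control 142.4, 151.8 and 152.7 CPM, so that the gene to be deleted was higher in the libraries labelled mutant (log2 fold change 0.32, SE 0.06, FDR 0.036). The titles and genotypes of these 6 libraries disagree with the names of their columns in the table, which call each by the opposite genotype. The titles are followed below, and by the column names every sign given for Mef2cAHF::Cre is reversed. Counts over the whole of Kmt2d include reads outside the floxed exons.

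Mutant replicate 1 of Tnnt2::Cre stood apart from the other 2 mutants of its line. Globins made up 11.8% of its counted reads, against 2.07% and 4.37% in mutants 2 and 3 and 9.05% to 14.7% in the 3 controls. In this library Kmt2d was at the level of the other mutants, and the fold changes of the 9 genes and the count over the wider lists are given with and without it in this line. Mesp1Cre libraries held 0.205% to 0.779% globin reads in mutants and 0.504% to 1.69% in controls. Mef2cAHF::Cre libraries held 2.45% to 4.53% when labelled mutant and 0.812% to 3.21% when labelled control. Other measures moved with the genotype too. Reads of mitochondrially encoded genes made up 13.3% to 15.7% of the counts in Mesp1Cre mutants and 22.03% to 23.4% in controls. In Mef2cAHF::Cre they made up 30.1% to 30.7% in the libraries labelled mutant and 24.8% to 28.2% in those labelled control. In Mesp1Cre all 4 mutants but 2 of the 4 controls were male by their Y-linked genes. The part of these differences in the results below was not tested, apart from the fits with sex as a covariate and without mitochondrial genes.

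Per length of transcript, Slc25a37 and Slc4a1 were the highest of the 9 genes in Tnnt2::Cre controls, at 365 ± 135 and 332 ± 113 FPKM (read counts scaled to transcript length and library size, SD, n = 3), and did not differ beyond their spread. Alas2 followed at 139 ± 37.8 FPKM, then Tfrc at 55.2 ± 9.87, Abcb10 at 32.8 to 55.6 and Rbm38 at 39.0 ± 7.78 FPKM. Klf1 and Epor stood side by side at 22.6 ± 6.34 and 22.01 ± 5.95 FPKM, and Gata1 was lowest at 10.6 ± 2.06 FPKM. So Klf1, Epor and Gata1 had lower mean levels than the heme, iron and membrane genes and Rbm38. In Mesp1Cre controls the order differed: Slc25a37 had 57.2 ± 20.2, Tfrc 48.6 ± 6.11, Rbm38 39.6 ± 3.43 and Slc4a1 34.7 ± 16.6 FPKM (SD, n = 4). Alas2 had 17.6 ± 6.77 and Abcb10 12.6 ± 2.31 FPKM there, and Epor, Klf1 and Gata1 had 3.81 ± 1.20, 3.11 ± 1.64 and 1.62 ± 0.725 FPKM.

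Between lines, 8 of the 9 genes were highest in Tnnt2::Cre controls and 7 lowest in Mesp1Cre mutants, on CPM scaled over all 20 libraries. The mean of the Tnnt2::Cre controls was 10.1 times that of the Mesp1Cre controls for Slc4a1, 8.30 times for Alas2, 7.61 times for Klf1, 6.88 times for Gata1, 6.68 times for Slc25a37, 6.05 times for Epor and 3.75 times for Abcb10. For Tfrc and Rbm38 the ratio was 1.19 and 1.04. Tfrc and Rbm38 were lowest in the Mef2cAHF::Cre libraries labelled control. Tfrc had its highest mean in Mesp1Cre mutants (404 ± 38.5 CPM, SD, n = 4) and its lowest in the Mef2cAHF::Cre libraries labelled control (157 ± 58.5 CPM, SD, n = 3). Ranking the 6 groups by their means gave 45 pairs of neighbours over the 9 genes, and 3 of these did not overlap. They were the 2 Mef2cAHF::Cre groups for Rbm38 and for Slc25a37, and the Mesp1Cre controls and mutants for Rbm38. For Slc25a37 the gap was between 405.7 and 405.5 CPM, and on the scale set within the line these libraries overlapped. Stage and Cre line changed together between Mesp1Cre and Tnnt2::Cre, and dissected region and Cre line between Mef2cAHF::Cre and Tnnt2::Cre. Depth differed too, with 21727258 to 28790705 counted reads in Mesp1Cre libraries and 35379996 to 45341870 in Tnnt2::Cre libraries. The column names also give each line a number of its own, whose meaning is not stated. What changed together between 2 lines cannot be told apart.

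**Figure D1:**
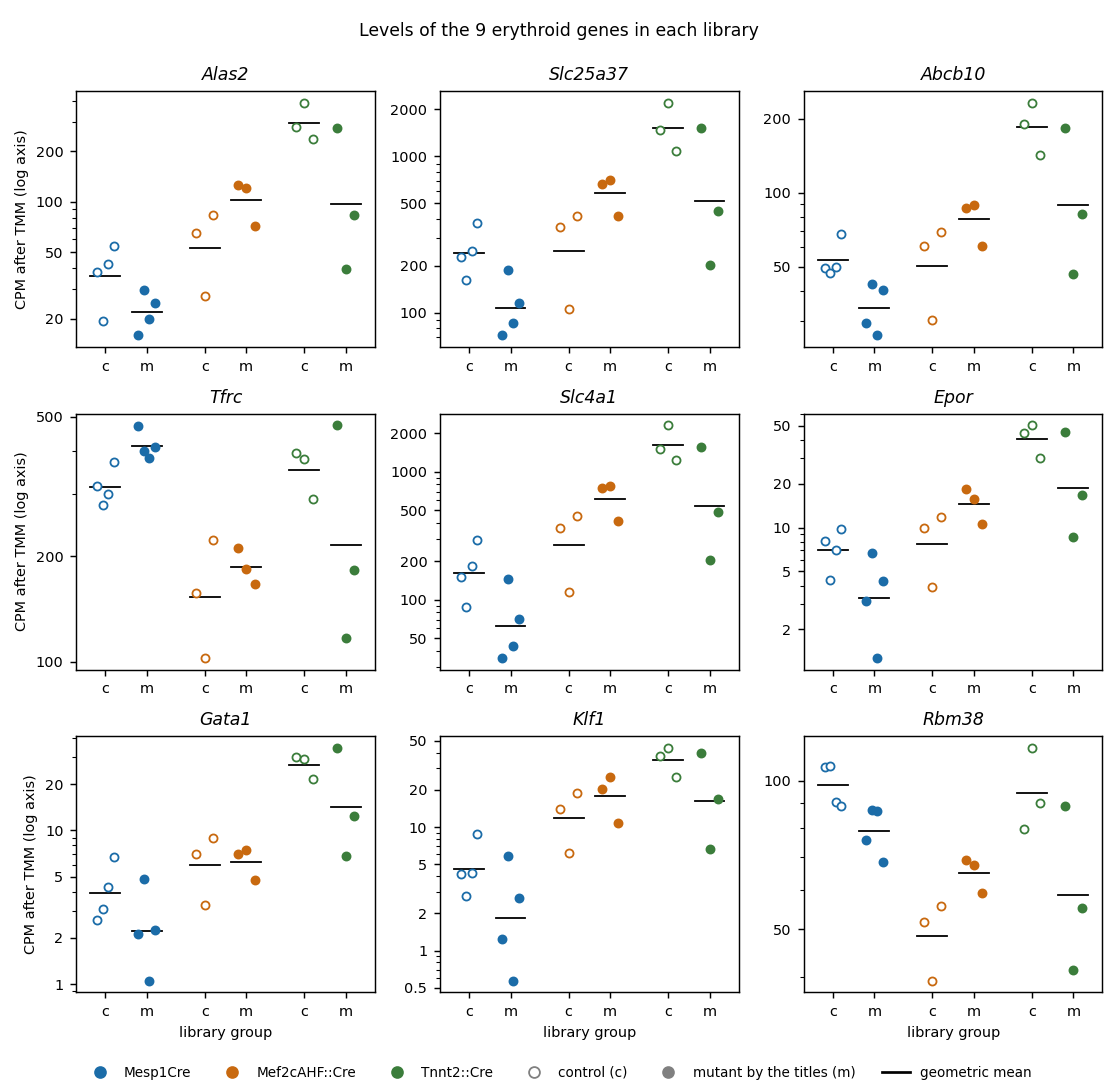
Level of each of the 9 genes in each of the 20 libraries, as CPM after TMM scaling within the line, on a log axis. Open circles are controls and filled circles mutants by the titles, colours mark the Cre line, and each bar is the geometric mean of a group. The mutant of Tnnt2::Cre that lies with its controls in every panel is replicate 1.

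In Mesp1Cre hearts the mitochondrial iron carrier and its partner were reduced and the transferrin receptor was raised. Slc25a37 fell 2.19-fold and Abcb10 fell 1.55-fold, and Tfrc rose 1.31-fold. Alas2, Rbm38, Slc4a1 and Epor were lower at an unadjusted p under 0.05 but did not pass the threshold (FDR 0.05 by edgeR's quasi-likelihood test over all genes), and Klf1 and Gata1 passed neither. So 2 of 9 genes were called lower and 1 called higher, where 5.29% of all genes tested were called lower and 6.17% called higher. An unadjusted p under 0.05 was reached by 7 of the 9, and by 4267 of all 15883 genes tested. The groups did not overlap in 3 of the 9 genes, Abcb10, Rbm38 and Tfrc, as in 17.7% of all genes. The median log2 fold change of the 9 genes was -0.769, and that of all genes was -0.002.

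Slc25a37 had 71.6, 188.5, 86.6 and 116.1 CPM in mutants 1 to 4 and 228.7, 162.3, 248.5 and 373.2 CPM in controls 1 to 4. Mutant 2 lay above control 2, and the other mutants lay below every control (log2 fold change -1.13, SE 0.28, FDR 0.0213 by edgeR). The gene, ENSMUSG00000034248, is listed over a longer interval in the table (mm9 chr14:69683106-69903160, minus strand) than in the GENCODE annotation used here, where it ends at the same position but starts at 69859908.

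Abcb10 (ENSMUSG00000031974, chr8:126476359-126507022, minus strand) had 29.5, 42.5, 26.3 and 40.2 CPM in mutants and 49.5, 47.2, 50.0 and 68.1 CPM in controls. Every mutant was below every control (log2 fold change -0.63, SE 0.17, FDR 0.0284). Tfrc (ENSMUSG00000022797, chr16:32609006-32632880, plus strand) went the other way, with 468.6, 399.9, 381.5 and 408.3 CPM in mutants and 318.1, 279.4, 301.5 and 370.3 CPM in controls, again with no overlap (log2 fold change 0.39, SE 0.09, FDR 0.0191). With sex as a covariate the change of Tfrc was 0.27 with an FDR of 0.153, while Slc25a37 and Abcb10 stayed past the threshold.

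Alas2 (ENSMUSG00000025270, chrX:146981918-147001206, plus strand), the first enzyme of the pathway, had 15.9, 29.9, 20.1 and 24.9 CPM in mutants and 38.1, 19.3, 42.7 and 54.7 CPM in controls, where control 2 lay inside the range of the mutants (log2 fold change -0.77, SE 0.26, FDR 0.0797). Without that control the FDR was 0.0131. Slc4a1 (ENSMUSG00000006574, chr11:102210138-102227517, minus strand) had 35.1, 144.6, 43.8 and 70.9 CPM in mutants and 152.1, 88.2, 182.6 and 291.6 CPM in controls (log2 fold change -1.28, SE 0.41, FDR 0.0607). Mutant 2 was again the highest mutant and control 2 the lowest control. Without mutant 2 the change of Slc4a1 was -1.83 with an FDR of 0.0055.

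The regulators Epor (ENSMUSG00000006235, chr9:21763343-21768020, minus strand), Klf1 (ENSMUSG00000054191, chr8:87425827-87429184, plus strand) and Gata1 (ENSMUSG00000031162, chrX:7536386-7555197, minus strand) were counted at low levels at E9.0. Epor had 29 to 172 reads in a mutant and 104 to 239 in a control, Klf1 13 to 149 and 66 to 214, and Gata1 24 to 125 and 70 to 163. Their log2 fold changes were -0.93 (SE 0.41, FDR 0.162), -0.95 (SE 0.57, FDR 0.316) and -0.69 (SE 0.45, FDR 0.350). Without mutant 2 Klf1 had -1.72 (FDR 0.0540), Gata1 -1.20 (FDR 0.0881) and Epor -1.33 (FDR 0.0484). Without control 4 Klf1 had -0.53 and Gata1 -0.37, and without mutant 3 Klf1 had -0.61 and Gata1 -0.43. In all 3 genes the groups overlapped, and mutant 3 was the lowest library. Rbm38 (ENSMUSG00000027510, chr2:172847403-172860235, plus strand) had 68.3 to 87.0 CPM in mutants and 89.0 to 107.2 CPM in controls with no overlap (log2 fold change -0.31, SE 0.10, FDR 0.0730). Rbm38 shares 384 exonic bases with genes on the opposite strand, and since it is not stated whether reads were counted by strand, its count may hold reads of both.

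These calls depended on the libraries and the model. Leaving out 1 of the 8 Mesp1Cre libraries at a time gave 0 to 5 called genes. None was called without mutant 1, 5 were called without mutant 2, and 1 was called without mutant 3, control 1 or control 4. Of all genes 6.47% were called without mutant 1, 13.3% without mutant 2, and 6.93% to 8.33% without each other library. Tfrc passed without each mutant but mutant 1 and without control 4, and had an FDR of 0.0532, 0.0582 and 0.0542 without control 1, 2 and 3. Slc25a37 missed the threshold without control 4 or mutant 1, 3 or 4 (FDR 0.0527 to 0.0655), and Abcb10 without control 1 or 4 or mutant 1 or 3 (FDR 0.0511 to 0.0886). The 6-group fit called 0 of 9, and limma on FPKM called Tfrc alone. Markers of another blood lineage moved in the opposite direction to most of the 9 genes. Of 12 megakaryocyte and platelet markers 11 were tested, 11 had a higher fitted level in mutants and 5 passed the test. Of all genes 6.17% were called higher and 5.29% lower, which applies to the marker counts below too. The summed level of the megakaryocyte and platelet markers was 126.7 to 391.2 CPM in mutants and 70.4 to 97.9 CPM in controls. Of these 12 markers, 2 had no read in control 2 and each of the 12 had reads in the other 7 libraries. Of 8 endothelial and endocardial markers 3 were called higher, with summed levels of 657.8 to 769.1 CPM in mutants and 511.2 to 606.3 CPM in controls. Of 11 macrophage markers 3 to 6 had no read in a library, and 1 of the 5 tested was called lower. All 10 cardiomyocyte markers had reads in each of the 20 libraries, and in Mesp1Cre 2 of them were called lower (Tnni3 and Myl4) and 1 higher (Ryr2), named after their values were seen. The part of these markers in the result was not tested.

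In Mef2cAHF::Cre none of the 9 genes passed the threshold. By the titles 8 of 9 had a higher fitted level in the libraries labelled mutant, with a median log2 fold change of 0.56 against -0.007 over all genes, and by the column names 8 of 9 had a lower level in mutants. edgeR called 0 of 9, where 2.85% of all genes were called in either direction. An unadjusted p under 0.05 was reached by 5 of the 9, and by 3037 of all 16920 genes tested. DESeq2 called 1, Rbm38 (FDR 0.0333), and limma on FPKM called 0. The groups did not overlap in Rbm38 alone, against 24.0% of all genes.

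Slc4a1 had 742.6, 772.0 and 412.4 CPM in the libraries labelled mutant and 364.5, 115.1 and 448.4 CPM in those labelled control (log2 fold change 1.05, SE 0.43, FDR 0.233, and -1.05 by the column names). Library 3 of the first group and library 3 of the second overlapped, and library 2 labelled control was far below the rest. Slc25a37 behaved alike, with 670.0, 707.3 and 414.7 CPM against 352.5, 105.5 and 414.9 CPM (log2 fold change 1.04, FDR 0.233, and -1.04 by the column names). Alas2 had 125.8, 120.4 and 71.3 CPM against 64.7, 27.2 and 83.2 CPM (log2 fold change 0.86, FDR 0.243, and -0.86 by the column names). Without library 2 labelled control, the only male of the 6, the log2 fold changes by the titles were 0.66 for Slc4a1, 0.64 for Slc25a37 and 0.52 for Alas2.

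Rbm38 had 69.0, 67.5 and 59.1 CPM in the libraries labelled mutant and 51.6, 39.3 and 55.8 CPM in those labelled control, with no overlap (log2 fold change 0.41, SE 0.13, FDR 0.120, and -0.41 by the column names). Epor and Abcb10 had log2 fold changes of 0.80 (FDR 0.271) and 0.56 (FDR 0.317) by the titles, and Klf1 0.53 (FDR 0.540). Without library 2 labelled control these were 0.46, 0.28 and 0.19, and without library 3 labelled control Klf1 had 0.91. Gata1 had nearly the same mean in both groups, with 6.995, 7.41 and 4.74 CPM against 7.05, 3.28 and 8.98 CPM (log2 fold change -0.02, SE 0.33, FDR 0.987). Tfrc had 210.6, 183.5 and 166.8 CPM against 156.6, 102.5 and 221.9 CPM (log2 fold change 0.22, SE 0.23, FDR 0.678). Its sign turned to -0.01 without library 2 labelled control, and without library 3 labelled control it had 0.53.

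Megakaryocyte and platelet markers again moved with the groups: 10 of 12 were called lower in the libraries labelled mutant, where 2.85% of all genes were called in either direction. Their summed level was 107.0 to 199.2 CPM in the libraries labelled mutant and 411.6 to 918.8 CPM in the libraries labelled control. By the column names these markers were higher in mutants, as they were in Mesp1Cre. Each of the 12 had reads in all 6 libraries. Macrophage markers had a lower fitted level in the libraries labelled mutant for 10 of 11 genes, 0 of them called, and summed to 47.8 to 60.8 CPM there and 50.7 to 64.7 CPM in the libraries labelled control. Cardiomyocyte markers summed to 20090 to 21070 CPM and 14800 to 19750 CPM in the 2 groups. The part of these differences in the erythroid values was not tested.

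In Tnnt2::Cre all 9 genes had a lower mean in mutants, and none passed the threshold over all 6 libraries. The median log2 fold change was -0.818, and that of all genes was 0.004. edgeR called 0 of 9, where 0.293% of all genes were called. An unadjusted p under 0.05 was reached by 1 of the 9 (Rbm38), and by 2034 of all 17045 genes tested. DESeq2 and limma on FPKM also called 0. The groups overlapped in all 9 genes, while 17.1% of all genes had groups that did not overlap. Without mutant replicate 1 all 9 fell past the threshold, by 0.99 to 2.30 on the log2 scale, where 3.32% of all genes were called lower. That library was left out after its values were seen, and it stood apart by its globin share, which most of these genes follow. The calls without it are therefore partly set by that choice and give no independent support. Leaving out any other library of the line called 0 of the 9 genes.

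Alas2 had 274.5, 39.9 and 82.8 CPM in mutants 1 to 3 and 277.5, 389.8 and 236.9 CPM in controls (log2 fold change -1.19, SE 0.58, FDR 0.468). Mutant 1 lay among the controls, and mutants 2 and 3 lay far below them. Without mutant 1 the change was -2.30 (FDR 0.0057). Slc25a37 had 1522, 200.8 and 447.6 CPM against 1478, 2209 and 1077 CPM, and Slc4a1 1557, 206.2 and 484.1 CPM against 1508, 2315 and 1240 CPM. Their log2 fold changes were -1.13 (FDR 0.513) and -1.17 (FDR 0.490) with mutant 1 and -2.29 (FDR 0.0100) and -2.29 (FDR 0.0099) without it.

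Klf1, Gata1 and Epor were also lowest in mutants 2 and 3. Klf1 had 39.7, 6.66 and 16.7 CPM in mutants and 37.8, 44.0 and 25.5 CPM in controls. Gata1 had 34.6, 6.84 and 12.4 CPM against 30.0, 29.0 and 21.7 CPM, and Epor 45.7, 8.57 and 16.7 CPM against 44.7, 50.6 and 30.1 CPM. In each of the 3 genes mutant 2 was the lowest library, mutant 3 the next and mutant 1 stood with the controls, above all of them for Gata1. With mutant 1 the log2 fold changes were -0.76 (FDR 0.603), -0.58 (FDR 0.684) and -0.82 (FDR 0.566), and without it -1.61 (FDR 0.0271), -1.49 (FDR 0.0104) and -1.73 (FDR 0.0107).

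Tfrc, which was higher in Mesp1Cre mutants, had 472.7, 116.8 and 182.2 CPM in Tnnt2::Cre mutants and 392.5, 378.8 and 291.6 CPM in controls (log2 fold change -0.46, FDR 0.725). Mutant 1 was its highest library. Without it the change was -1.25 (FDR 0.0099). Abcb10 had log2 fold changes of -0.86 (FDR 0.468) with mutant 1 and -1.55 (FDR 0.0102) without it, and Rbm38 -0.63 (FDR 0.389) and -0.99 (FDR 0.0142). Mutant 1 also held the most RNA of megakaryocyte and platelet markers, 1152 CPM summed against 275.0 and 282.3 CPM in mutants 2 and 3 and 304.2 to 542.2 CPM in controls, and its cardiomyocyte markers (30030 CPM) lay between those of mutants 2 and 3. Of 11 macrophage markers 10 had a higher fitted level in mutants and 0 were called, with sums of 61.9 to 80.1 CPM in mutants and 63.5 to 68.5 CPM in controls. The part of these markers in the result was not tested. The library was left out after its values were seen.

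**Figure D2:**
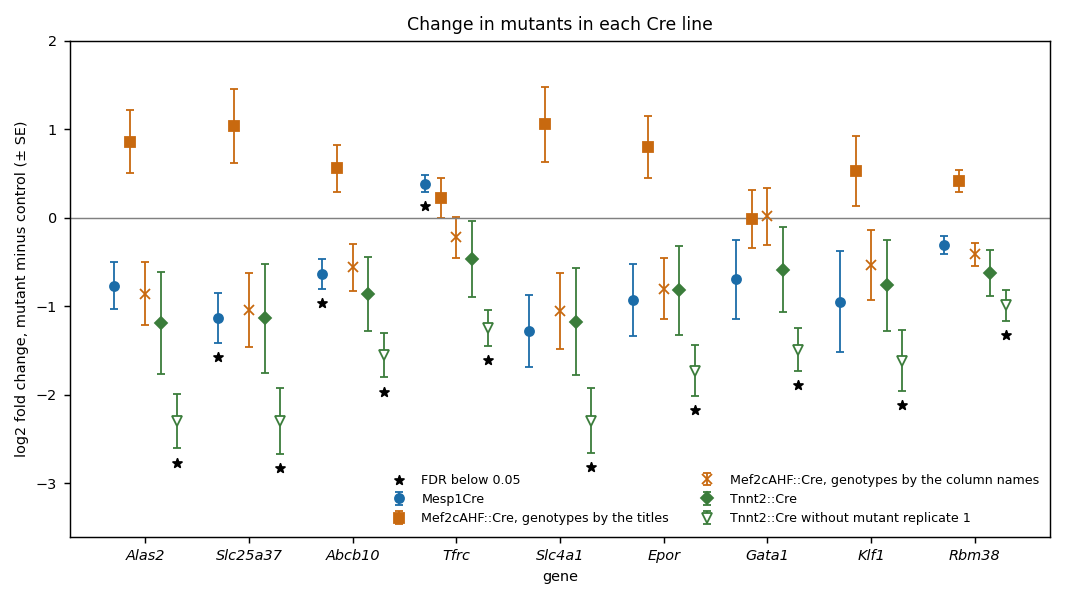
Log2 fold change of each of the 9 genes, mutant minus control, with its standard error, in Mesp1Cre, in Mef2cAHF::Cre by the titles and by the column names, and in Tnnt2::Cre with and without mutant replicate 1. Stars mark an FDR below 0.05: Slc25a37, Abcb10 and Tfrc in Mesp1Cre, and all 9 genes in Tnnt2::Cre without mutant 1. Mutant 1 was left out after its values were seen.

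Whether the change of a gene differed between the lines was tested as an interaction in 1 edgeR fit of all 6 groups. By the titles 0 of 9 genes passed in each pair of lines. Between Mesp1Cre and Tnnt2::Cre 0 had an unadjusted p under 0.05, where 3.04% of all genes were called, and the largest difference was in Tfrc (0.83 on the log2 scale, SE 0.44, FDR 0.318). Between Mesp1Cre and Mef2cAHF::Cre 6 had an unadjusted p under 0.05, the closest Slc25a37 (-2.19, SE 0.74, FDR 0.0628), where 11.3% of all genes were called. Between Mef2cAHF::Cre and Tnnt2::Cre 6 had an unadjusted p under 0.05, the closest Rbm38 (1.04, SE 0.29, FDR 0.0535). There 3.19% of all genes were called, and DESeq2 called 1 of the 9. These shares of all genes are at an FDR under 0.05. How many of all genes had an unadjusted p under 0.05 was not computed for the interactions. The counts of 6 are therefore not shown to be particular to these genes.

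By the column names 0 of 9 genes passed and 0 had an unadjusted p under 0.05 in either pair with Mef2cAHF::Cre, and of all genes 1.63% were called against Mesp1Cre and 0% against Tnnt2::Cre. For Slc4a1 the difference from Mesp1Cre was then -0.25 (SE 0.81) and for Slc25a37 -0.11 (SE 0.73), intervals wide enough to hold changes of more than 1 on this scale in either direction. Without Tnnt2::Cre mutant 1, by the titles, 1, 5 and 7 genes passed in the 3 pairs, where 2.35%, 11.9% and 5.43% of all genes were called. That library was left out after its values were seen. Between Mesp1Cre and Mef2cAHF::Cre 4 passed without Tnnt2::Cre mutant 2 and 2 without Mesp1Cre mutant 2, where 11.7% and 13.5% of all genes were called.

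The genes tracked each other across libraries. After the mean of its line and genotype was taken from each of the 20 libraries, the 9 genes and the summed globins gave 45 correlations of log2 CPM, from 0.482 to 0.983, and 42 of them passed a permutation test within groups (100000 shuffles, two-sided, Benjamini-Hochberg over the 45). How many pairs of other genes would pass the same way was not computed, so the count of 42 is not shown to be particular to these genes. The 21 pairs without Tfrc and Rbm38 ran from 0.822 to 0.983. All values of a library share its depth and scaling, and mutants 1 and 2 of Tnnt2::Cre had the highest and the lowest deviation of the globins and of 7 of the 9 genes, with Klf1 and Epor as the exceptions.

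Slc4a1 followed the globins most closely, with r = 0.983 and rho = 0.994 (permutation p = 2e-05 and 1e-05, the second the smallest 100000 shuffles can give, adjusted p of r = 0.00012), and r = 0.970 without the 2 libraries farthest from the median. Alas2 and Slc25a37 were close to it, with r = 0.970 and 0.967 (rho 0.983 and 0.992, permutation p of r = 3e-05 and 2e-05) and 0.949 and 0.942 without the 2 farthest libraries. Abcb10, Klf1, Epor and Gata1 followed with r of 0.906, 0.862, 0.856 and 0.846. This order did not hold in each line: in Mef2cAHF::Cre alone Gata1 had the highest r of the 9 genes (0.998).

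Among the regulators, Klf1 went with Epor (r = 0.955, rho = 0.949, permutation p = 3e-05) and with Gata1 (r = 0.943, rho = 0.917, permutation p = 4e-05), and Epor with Gata1 (r = 0.928, rho = 0.880, permutation p = 0.00012). Each is above the r of the same gene with the globins. Slc25a37 and Abcb10, whose proteins work together, had r = 0.973 (rho = 0.959, permutation p = 3e-05), and Slc25a37 and Slc4a1 r = 0.983 (rho = 0.991, permutation p = 2e-05). The differences between these correlations were not tested.

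Tfrc and Rbm38 followed less closely. With the globins Tfrc had r = 0.773 (rho = 0.708, permutation p = 0.00682, adjusted p = 0.00853), and without the 2 farthest libraries r = 0.566 (p = 0.0876 by permutation). Rbm38 had r = 0.659 (rho = 0.585, permutation p = 0.0329, adjusted p = 0.0361), and without them r = 0.382 (p = 0.344 by permutation). So over the 20 libraries neither relation passed without those 2 libraries. Within Mef2cAHF::Cre alone Tfrc and Rbm38 had r = 0.948 and 0.995 with the globins (exact permutation p = 0.0556 for both). Rbm38 gave the 3 correlations that did not pass, with Klf1, Gata1 and Epor (0.482, 0.552 and 0.570).

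Within Mesp1Cre alone (8 libraries) Slc4a1 had r = 0.965 with the globins (exact permutation p = 0.00174, the smallest that 4 and 4 libraries allow), Slc25a37 0.961 and Alas2 0.951. There Tfrc had r = 0.147 (exact permutation p = 0.741) and Rbm38 r = -0.177 (exact permutation p = 0.675). In Mef2cAHF::Cre and Tnnt2::Cre, with 6 libraries each, each of the 9 genes had an r with the globins of at least 0.943, and the smallest exact permutation p such a line allows is 0.0278.

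**Figure D3:**
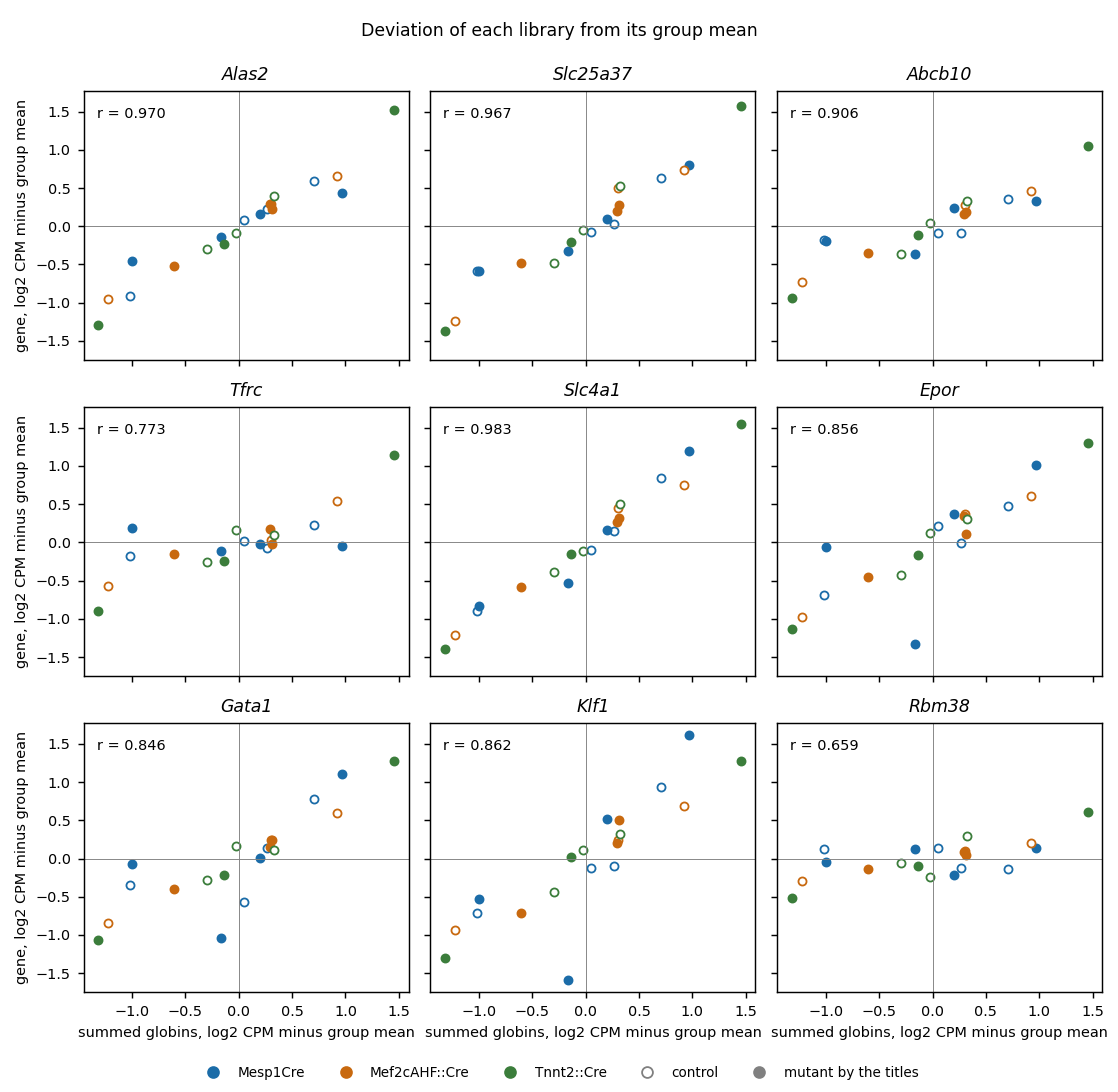
Deviation of each gene from the mean of its line and genotype (log2 CPM) against the same deviation of the summed globins, 1 point for each of 20 libraries. The correlation r printed in each panel runs from 0.983 for Slc4a1 to 0.659 for Rbm38, and the point at the far right of each panel is Tnnt2::Cre mutant 1.

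The genes most like each of the 9, among 12649 genes whose log2 CPM averaged 1 or more, were mostly other red cell genes. This likeness is a description over the same 20 deviations. Alas2 was nearest to Hemgn (r = 0.981), Fech (0.979), the last enzyme of heme synthesis, and Car2 (0.975), a carbonic anhydrase. Genes near Slc25a37 were Car2 (0.984) and the alpha-spectrin gene Spna1 (0.977), and genes near Abcb10 were the beta-spectrin gene Spnb1 (0.986) and Slc39a8 (0.977). Slc4a1 was nearest to Epb4.2 (0.994), the protein 4.2 gene, Spna1 (0.988) and Car2 (0.988).

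Ank1, the ankyrin that ties band 3 to the red cell skeleton, was among the 3 nearest genes of all the regulators but Rbm38. It had r = 0.946 with Klf1, 0.931 with Gata1 and 0.941 with Epor. The other near genes of Klf1 were Trim10 (0.965) and Ell2 (0.941), those of Gata1 Abcg2 (0.927) and Suv39h1 (0.921), and those of Epor March3 (0.931) and Ell2 (0.926). Tfrc and Rbm38 had mostly other company. Tfrc was nearest to Txnrd2 (0.938), Serinc3 (0.936) and Brpf3 (0.931), and Rbm38 to the cyclin gene Ccna2 (0.948), 1700037H04Rik (0.939) and Lyl1 (0.904). Lyl1 is counted below among the erythroid transcription factors.

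To set the 9 genes against the globin reads of a library, their reads were also counted per 1000 globin reads, a measure chosen after the data were seen. By an exact permutation test of mutants against controls, adjusted over the 9 genes in 3 lines, none passed (smallest adjusted p 0.2455). With 3 and 3 libraries the smallest p this test allows is 0.1. Globin reads are no count of red cells, and the ratio also rises where the globins fall. Slc4a1 varied least, from 11.2 to 19.1 reads per 1000 globin reads over the 20 libraries. In Tnnt2::Cre mutant 1 it had 12.6, in mutants 2 and 3 11.2 and 11.6, and in controls 12.7, 15.3 and 12.8. These 6 values lay between 11.2 and 15.3, while the CPM of the same libraries ran from 206.2 to 2315.

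In Mesp1Cre all 9 genes had a higher geometric mean per 1000 globin reads in mutants, by 0.123 (Slc4a1) to 1.89 (Tfrc) on the log2 scale. In this line 4 of 7 globins were themselves called lower, and Tfrc and Rbm38 did not follow the globins (r = 0.147 and -0.177). A rise on this scale is therefore not shown to be a rise per red cell. Tfrc had 243.6, 52.8, 110.6 and 91.5 reads in mutants and 28.3, 51.5, 22.9 and 20.8 in controls. Alas2 had 8.28, 3.95, 5.82 and 5.58 in mutants and 3.39, 3.57, 3.24 and 3.07 in controls, so that every mutant was above every control although its CPM was lower in mutants. Slc25a37 and Slc4a1 overlapped between the groups on this scale.

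In Tnnt2::Cre 3 genes had a lower geometric mean in mutants (Alas2, Slc25a37 and Slc4a1, by 0.162 to 0.208 on the log2 scale) and 6 a higher one. Gata1 had 0.279, 0.371 and 0.297 reads per 1000 globin reads in mutants and 0.253, 0.191 and 0.223 in controls, and Klf1 0.320, 0.361 and 0.403 against 0.320, 0.290 and 0.262. In Mef2cAHF::Cre 7 of 9 were lower in the libraries labelled mutant, Gata1 most, with 0.148, 0.155 and 0.188 against 0.335, 0.448 and 0.278 reads. By the column names Gata1 would then be higher in mutants relative to globins, the direction it had in the other 2 lines.

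**Figure D4:**
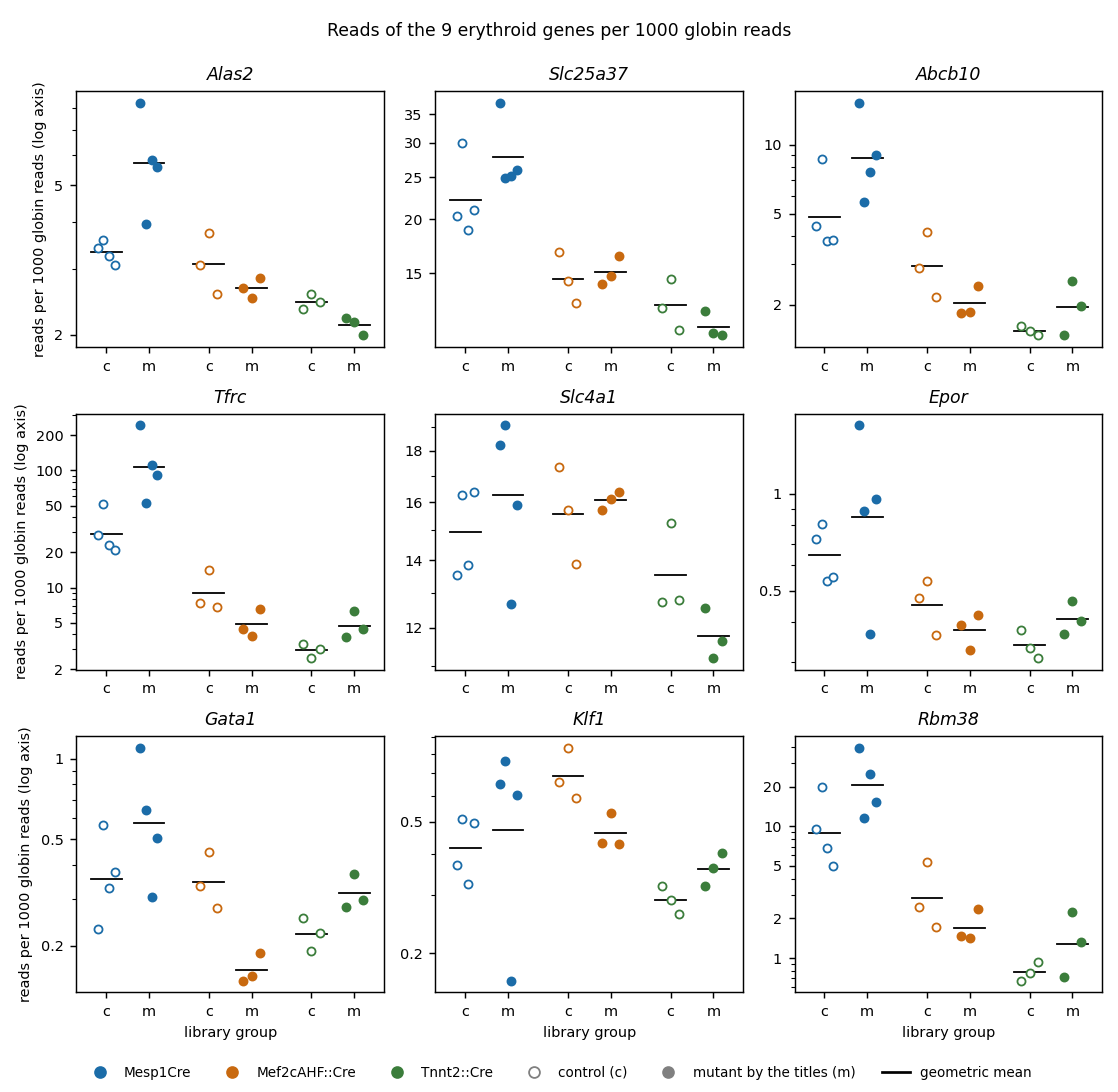
Reads of each of the 9 genes per 1000 globin reads of the same library, on a log axis whose range differs between panels. Symbols are as in the plot of CPM by library. Slc4a1 spans 11.2 to 19.1 over all 20 libraries, while Tfrc spans 2.496 to 243.6.

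The wider red cell program was read from 7 lists with 74 genes in the table, none of them among the 9. In Mesp1Cre 70 were tested, 17 were called lower and 3 higher, with a median log2 fold change of -0.504. Of all genes 5.29% were called lower and 6.17% higher in that line. In Mef2cAHF::Cre 72 were tested, and by the titles 4 were called higher and 1 lower, with a median of 0.533. Of all genes 2.85% were called in either direction there. In Tnnt2::Cre 73 were tested and edgeR called 0, with a median of -0.754. DESeq2 and limma called 0 too. By edgeR 8 of the 73 had an unadjusted p under 0.05, a share similar to the 2034 of all 17045 genes tested. Without mutant 1 of that line 50 of 73 were called, all lower, and the median was -1.36, where 3.32% of all genes were called lower. Since mutant 1 was left out after its high globin share was seen, these calls are partly set by that choice.

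Of 14 genes of the red cell membrane and its skeleton tested in Mesp1Cre 6 were called lower and 0 higher, where 5.29% of all genes were called lower. Spnb1 (beta-spectrin) fell from 55.1 ± 9.09 to 28.8 ± 6.81 CPM (SD, n = 4, log2 fold change -0.94, FDR 0.0040). Of 7 globins 4 were called lower, with the embryonic Hbb-y at 3699 ± 1373 CPM in controls and 1094 ± 604 CPM in mutants (log2 fold change -1.76, FDR 0.0077). The globins did not all move alike: 5 had a lower fitted level in mutants and 2 a higher one. The 2 were Hbb-b2 (log2 fold change 1.19, FDR 0.0554) and Hbb-b1 (0.98, FDR 0.136), not called and named after their values were seen. Reads of near-identical globin copies may have been split between them. Of 7 other enzymes of heme synthesis 1 was called, Alad, which fell from 24.4 ± 5.30 to 10.7 ± 3.96 CPM (FDR 0.0061). Of 8 genes of iron uptake and storage 2 were called lower, led by Glrx5, a glutaredoxin of iron-sulfur cluster assembly (47.96 ± 7.65 to 28.7 ± 6.59 CPM, FDR 0.0126).

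The other lists of Mesp1Cre were mixed or quiet. Of 12 erythroid transcription factors 1 was called, Bcl11a, a repressor of embryonic globins, which rose from 3.97 ± 1.90 to 15.0 ± 3.22 CPM (FDR 0.0029). Of all genes 6.17% were called higher, so 1 call among 12 genes is near that share. Of 13 red cell enzymes and maturation genes 4 were called lower and 2 higher. Among them Bpgm, the enzyme that makes 2,3-bisphosphoglycerate, fell from 32.1 ± 7.25 to 14.2 ± 4.30 CPM (FDR 0.0040). Bnip3l, a mitophagy receptor of maturing red cells, rose from 175 ± 7.05 to 376 ± 46.4 CPM (FDR 1.5e-05). Its control means in Mef2cAHF::Cre and Tnnt2::Cre, scaled within each line, were near this at 188 and 172 CPM. Most of the 9 genes were higher in Tnnt2::Cre controls than in Mesp1Cre controls, so Bnip3l did not follow them between lines. Of 9 genes of erythropoietin signalling 0 were called, and the smallest p was that of Jak2 (log2 fold change -0.29, FDR 0.103).

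In Mef2cAHF::Cre the 5 calls were spread over 4 lists, with Hbb-b1 (log2 fold change 1.55, FDR 0.0491), named after its values were seen, beside the genes that follow. By the titles Hba-a1 had 453 ± 206 CPM in the libraries labelled mutant and 127 ± 57.7 CPM in those labelled control (SD, n = 3, FDR 0.0485), Cldn13, an erythroid claudin, 4.78 ± 1.59 and 1.25 ± 0.336 CPM (FDR 0.0185), and Gata2 10.4 ± 0.346 and 6.87 ± 0.791 CPM (FDR 0.0399). Socs2, a feedback inhibitor of cytokine signalling, went the other way at 23.8 ± 0.162 and 33.5 ± 4.24 CPM (FDR 0.0359). Each of these directions turns by the column names. The genes of the smallest p in the other lists were Ppox (0.47, FDR 0.0886), Steap3 (1.24, FDR 0.0654) and Car2 (1.16, FDR 0.129).

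In Tnnt2::Cre all 15 genes of the membrane list, all 7 heme enzymes, all 7 globins and all 8 iron genes had a lower fitted level in mutants, and none passed the test. The remaining lists were mixed, with 4 of 15 red cell enzymes and maturation genes higher in mutants. So were 2 of 12 erythroid transcription factors and 2 of 9 genes of erythropoietin signalling. The genes of the smallest p were Hbb-b2 (log2 fold change -1.26, FDR 0.430), Alad (-0.98, FDR 0.340), Epb4.1 (-0.65, FDR 0.438), Ldb1 (-0.33, FDR 0.314), Slc48a1 (-0.54, FDR 0.264), Cish (0.43, FDR 0.246) and Add1 (-0.41, FDR 0.313). These genes were named for their p, so nothing is read from whether their groups overlap.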

How the data were processed

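RNA of 20 embryonic mouse hearts or heart regions was sequenced. Raw counts per gene were deposited by the authors, who aligned reads to mm9 (TopHat2 2.0.8b per the processing notes) and assigned them with featureCounts, per the paper's methods. The FPKM values were deposited by the authors as computed in USeq 8.6.4 per the file headers, scaled to gene length and library size. The authors also deposited log2 variance-corrected counts in 20 columns, not used here. The labels and the study's methods name different library kits, and the strand setting of the counting is not given in the sources used here. Whether blood was washed from the hearts is likewise not given.

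Groups follow the titles. Counts were filtered with filterByExpr, scaled by TMM and compared, 1 line at a time, by the quasi-likelihood F test of edgeR 4.0.16 (R 4.3.3, two-sided), with Benjamini-Hochberg adjustment over all genes and an FDR threshold of 0.05. This fit was tested on simulated counts. Interactions used 1 fit of all 6 groups. Alternatives used DESeq2 1.42.0, limma 3.58.1 on log2(FPKM + 0.1) and log2(FPKM + 1), other filters, sex and replicate blocks. Correlations used log2 CPM (prior count 2) minus group means. Embryos with over 10 CPM of Y-linked genes were counted as male. No label says which embryos were littermates, and p-values measure the spread between these libraries.

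The 9 genes and all lists were chosen with earlier results of these data known. All 9 are described in each comparison. From each wider list the text names, per line, the gene of smallest p in each direction among those past the threshold, or the gene of smallest p where none passed, and for each of the 9 the 3 most similar genes, apart from results that are not reported here. Of the list symbols, 7 are not among the table's symbols and were not analysed here. Promoters were taken from RefSeq (GRCm38.p6 table) and located in mm9 by exact match.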

Additional observations from a re-analysis of the deposited data

Results flagged for a closer look

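Abcb10 in Mesp1Cre control 4 stood apart from the other 3 controls, at 68.1 CPM against 47.2, 50.0 and 49.5 CPM. Its gap to the nearest control was 0.866 of the range of the group, above Dixon's 95% critical value for 4 samples. In all, 18 groups of 4 libraries were examined in this way, and chance alone passes about 1 in 20 of such groups. Control 4 also had the highest CPM of Alas2, Slc25a37, Slc4a1, Klf1, Gata1, Epor and Tfrc among these controls. Without it Abcb10 had an FDR of 0.0886 by edgeR.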

How the results depend on the processing

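Of the 9 genes, 3 were called in Mesp1Cre, against 1 by limma on FPKM with either pseudocount (5.4% and 5.25% of all genes), 0 in the fit of all 6 groups (19.5% of all genes) and 0 to 5 when each library was left out in turn. In Mef2cAHF::Cre 0 were called, against 1 by DESeq2 (3.64% of all genes), 6 with every gene of at least 1 count kept (4.43% of all genes) and 0 without any single library. In Tnnt2::Cre 0 were called, and 0 to 9 without single libraries. Of the wider lists 20 genes were called in Mesp1Cre, against 4 by limma with either pseudocount, 13 with the number code of the sample names as a block, 13 in the 6-group fit and 10 (without control 4) to 31 (without mutant 2). In Mef2cAHF::Cre 5 were called (2.85% of all genes), against 12 by DESeq2 (3.64%) and 37 with genes of at least 1 count (4.43%). Limma with either pseudocount called 0, the 6-group fit called 0, and 0 to 5 were called without single libraries. In Tnnt2::Cre 0 to 50 were called without single libraries, with 50 called without mutant 1 (5.12% of all genes). Differences between lines, 0 in each pair, became 6 (Mesp1Cre and Mef2cAHF::Cre) and 5 (Mef2cAHF::Cre and Tnnt2::Cre) with genes of at least 1 count (6.85% and 2.73% of all genes), 1 for the latter pair by DESeq2 (3.42%), and 0 to 1, 0 to 5 and 0 to 7 without single libraries. The 42 correlations that passed became 13 in Mesp1Cre alone, 0 in Mef2cAHF::Cre alone, 0 in Tnnt2::Cre alone (where 0.0278 is the smallest exact permutation p that 6 libraries allow) and 36 to 45 without single libraries. Apart from these constructions, the cause was not tested.

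Signs turned in Mef2cAHF::Cre alone. By the column names the log2 fold changes were -0.858 for Alas2, -1.037 for Slc25a37, -0.56 for Abcb10, -0.222 for Tfrc, -0.532 for Klf1, 0.016 for Gata1, -0.8 for Epor, -0.414 for Rbm38 and -1.054 for Slc4a1. Tfrc was at -0.018 with sex as a covariate and at -0.014 to 0.532 without single libraries, and Gata1 at -0.331 to 0.301 without single libraries.

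Deviations of same-numbered libraries correlated at -0.031 to 0.055 in Mesp1Cre, at -0.016 to 0.127 in Mef2cAHF::Cre and at -0.013 to 0.056 in Tnnt2::Cre. Those of differently numbered libraries correlated at -0.065 to 0.048, -0.204 to 0.126 and -0.056 to 0.029 in these lines. In Mesp1Cre each mutant shares the number code of its sample name with the control of the same replicate number. These correlations do not settle whether the samples were paired. With the replicate number as a block, 3, 0 and 0 of the 9 genes and 14, 2 and 0 genes of the wider lists were called in the 3 lines. Of all genes 8.71%, 3.06% and 0.164% were called in these fits. Gata1 had a log2 fold change of 0.047 in Mef2cAHF::Cre with this block. The lowest counts behind a value were 13 reads of Klf1, 24 of Gata1 and 29 of Epor, all at E9.0.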
